A study of Mus musculus with 16 samples.

Results

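The mitochondrial ribosomal protein genes are nuclear genes whose proteins are imported into mitochondria, where they build the ribosome that translates the few mRNAs encoded by mitochondrial DNA. The small subunit, for which most genes with Mrps symbols are named, reads the mRNA, and the large subunit, for which those with Mrpl symbols are named, forms the peptide bond. Name and place do not always match, since the products of Mrps18a and Mrps30 sit in the large subunit. Part of the proteins have bacterial relatives, and the others are found only in mitochondrial ribosomes. Hematopoietic stem cells (HSCs) are largely quiescent and keep mitochondrial respiration low, and mitochondrial translation supplies core subunits of the respiratory chain. The genes were taken by symbol alone, as every protein-coding gene of the GENCODE M21 annotation (mouse genome mm10) whose symbol is Mrpl or Mrps followed by a number. The rule gave 78 of 21851 protein-coding genes, 49 with large subunit names and 29 with small subunit names. Of the 78, 46 encode proteins of a universal or bacterial type and 32 encode proteins specific to mitochondria. Another 5 processed pseudogenes with such names were left out. The 78 genes lie on 17 chromosomes, with the highest number, 11, on chromosome 11.

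Chromatin immunoprecipitation and sequencing (ChIP-seq) was applied to bone marrow HSCs of C57BL/6 mice, sorted as IL-7- Lin- Sca-1+ c-kit+ cells that were also CD34- CD150+ CD48- Flt3-, from young (10 weeks) and aged (20 months) animals, which were female by the study's methods. H3K4me3 marks active promoters, whereas H3K27me3 and H2AK119ub1 are placed by the Polycomb repressive complexes 2 and 1. The labels list 2 libraries for each mark and age and 2 inputs for each age, 16 in all, but the peaks came as 6 lists, 1 per mark and age, deposited as pooled, and the bone marrow of several mice was pooled before the sort. Peak names in the broad lists (H3K27me3 and H2AK119ub1) carry a single library number, so whether both libraries entered those lists is not certain. The lists give no value per replicate, and differences between the ages were not tested. A gene was counted as marked when a peak overlapped, by at least 1 bp, the 1 kb on either side of any of its start sites. The H3K4me3 lists held 11371 peaks in young and 6723 in aged HSCs, with a lowest summit of 13 reads in both lists and a median of 20 and 19 reads. A gene without a peak in a list may therefore carry the mark below what these lists hold. Of 10 genes that mark HSCs, 7 had promoter H3K4me3 in each list (Mecom, Hlf, Procr, Meis1, Runx1 and Tal1 in both), whereas Ly6a and Slamf1, which encode the sort markers Sca-1 and CD150, had none and Kit had it in the aged list only. None of 7 genes of other blood cells, such as Cd3e and Mpo, had it.

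Promoters of mitochondrial ribosomal protein genes on which the results turn are shown here. Sequences are from RefSeq (build GRCm38.p6, the mm10 assembly), whose promoter table held 75 promoters of 69 of the 78 genes. No entry was used for Mrpl4, Mrpl13, Mrpl15, Mrpl19, Mrpl38, Mrpl54, Mrps28, Mrps34 and Mrps35. Each runs 5′ to 3′ on the strand of the gene, from at most 200 bases before the RefSeq start to the first 30 bases of the RefSeq transcript. The part before the start is shorter where it would otherwise hold more than 30 bases of annotated untranslated sequence. Marks were called at GENCODE starts instead. The RefSeq start was within 50 bp of a GENCODE start for 57 of the 69 genes, and at most 643 bp away. The stretches printed for Mrpl32, Mrps18c, Mrpl21, Mrpl11 and Mrps7 lie inside the GENCODE gene, downstream of its 5′ end. Capitals mark exact matches, on either strand, to 1 of 9 short motifs: GCGCANGCG for NRF1, CCGGAAG for the ETS family including GABPA, AANATGGC for YY1, GGGCGG for the GC box of SP and KLF factors, CACGTG (E-box), TGACGTCA (cyclic AMP response element), TCAAGGTCA for ERR, CCAAT and TATAAA. The first 3 promoters are of genes whose H3K4me3 peak ranked among the 4 strongest of the group in young HSCs.
Mrps22 (chr9:98601650-98601879, minus strand): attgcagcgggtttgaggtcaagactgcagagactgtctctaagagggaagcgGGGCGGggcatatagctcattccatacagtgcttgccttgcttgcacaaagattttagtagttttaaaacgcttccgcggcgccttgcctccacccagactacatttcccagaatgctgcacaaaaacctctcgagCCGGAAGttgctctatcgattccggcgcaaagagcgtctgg
Mrpl32 (chr13:14613008-14613067, minus strand): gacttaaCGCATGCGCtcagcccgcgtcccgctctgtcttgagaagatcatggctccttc
Mrps15 (chr4:126046728-126046957, plus strand): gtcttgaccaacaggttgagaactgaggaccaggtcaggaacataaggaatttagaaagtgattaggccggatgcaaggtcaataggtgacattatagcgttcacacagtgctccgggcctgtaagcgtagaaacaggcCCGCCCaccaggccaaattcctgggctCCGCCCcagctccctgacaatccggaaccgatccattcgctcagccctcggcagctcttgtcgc

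The next 3 are of genes whose H3K4me3 peak ranked among the 4 strongest of the group in aged HSCs. The Mrpl49 and Mrps27 promoters carried the YY1 motif, which holds an ATG, within the first 30 bases of the RefSeq transcript.
Mrps27 (chr13:99344676-99344815, plus strand): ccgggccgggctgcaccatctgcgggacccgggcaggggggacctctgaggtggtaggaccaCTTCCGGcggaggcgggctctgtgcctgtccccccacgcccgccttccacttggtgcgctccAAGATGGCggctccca
Mrpl49 (chr19:6057726-6057843, minus strand): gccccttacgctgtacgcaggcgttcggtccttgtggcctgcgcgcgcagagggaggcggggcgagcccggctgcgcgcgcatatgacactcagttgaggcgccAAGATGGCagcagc
Mrps18c (chr5:100798729-100798788, plus strand): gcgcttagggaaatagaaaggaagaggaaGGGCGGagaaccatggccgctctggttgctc

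The following 3 are of genes that had H2AK119ub1 at the promoter in aged HSCs.
Mrpl10 (chr11:97041400-97041611, plus strand): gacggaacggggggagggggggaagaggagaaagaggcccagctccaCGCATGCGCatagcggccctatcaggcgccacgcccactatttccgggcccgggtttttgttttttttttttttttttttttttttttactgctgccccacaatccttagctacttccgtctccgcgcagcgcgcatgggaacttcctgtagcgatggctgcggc
Mrpl21 (chr19:3283012-3283071, plus strand): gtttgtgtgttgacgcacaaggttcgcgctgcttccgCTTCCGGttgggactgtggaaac
Mrpl48 (chr7:100608272-100608501, minus strand): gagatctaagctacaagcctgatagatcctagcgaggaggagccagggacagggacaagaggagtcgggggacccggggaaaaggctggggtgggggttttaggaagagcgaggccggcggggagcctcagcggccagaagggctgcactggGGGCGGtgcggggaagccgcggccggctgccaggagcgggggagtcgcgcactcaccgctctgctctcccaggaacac

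Mrps11 shares its promoter with Mrpl46, and Mrps12 encodes the protein of the decoding centre.
Mrps11 (chr7:78783072-78783160, plus strand): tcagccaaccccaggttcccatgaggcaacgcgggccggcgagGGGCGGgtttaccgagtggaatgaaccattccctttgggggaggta
Mrps12 (chr7:28741792-28742021, minus strand): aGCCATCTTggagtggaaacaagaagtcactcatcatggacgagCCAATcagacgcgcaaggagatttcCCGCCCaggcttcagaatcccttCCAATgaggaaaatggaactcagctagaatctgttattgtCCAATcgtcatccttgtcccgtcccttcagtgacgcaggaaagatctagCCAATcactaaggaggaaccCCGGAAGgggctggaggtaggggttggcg

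The last pair is of Mrpl11 and Mrps7, which had no promoter H3K4me3 peak at either age. Both stretches also held the YY1 motif within the first 30 bases of the RefSeq transcript, inside the GENCODE gene.
Mrpl11 (chr19:4962276-4962335, plus strand): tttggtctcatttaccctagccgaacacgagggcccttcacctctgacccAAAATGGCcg
Mrps7 (chr11:115604110-115604169, plus strand): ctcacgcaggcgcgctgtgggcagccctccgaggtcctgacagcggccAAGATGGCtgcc

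Over the whole 300 bases of each entry (250 before the start and 50 from it), the YY1 motif was in 21 of the 75 promoters (28%), against 6.47% of the 20143 promoters of protein-coding genes in the table. The ETS motif was in 26 (34.7%, against 11.9%) and the NRF1 motif in 16 (21.3%, against 8.9%). Over all 32851 promoters of the table, non-coding genes included, these shares were 6.05%, 8.86% and 6.25%. NRF1, GABPA and YY1 are known regulators of nuclear genes for mitochondrial proteins. The GC box was in 39 promoters (52%), near the 47.7% of protein-coding genes (35.7% of the whole table), and CCAAT in 30 (40%, against 37.8%, and 37.4% of the whole table). TATAAA was in 5 (6.67%, against 12.1% and 13.6%), the E-box in 7 (9.33%, against 8.03% and 7.15%), the cyclic AMP response element in 2 (2.67%, against 2.31% and 1.79%) and the ERR motif in 0 (against 0.338% and 0.423%). Some windows of 1 gene overlap, so shares were also taken by gene. The E-box was then at 5 of the 69 genes (7.25%, against 9.18% of protein-coding genes in the table). The GC box was at 34 (49.3%, against 51%) and CCAAT at 27 (39.1%, against 42.1%). By gene, YY1 (30.4%, against 7.59%), ETS (37.7%, against 13.4%) and NRF1 (23.2%, against 10%) kept higher shares. Matches to the ETS motif and the GC box overlapped in 2 promoters, and no other motifs overlapped each other. The ratio of observed to expected CpG had a median of 0.82, against 0.588 over promoters of protein-coding genes and 0.384 over the whole table. It was at least 0.6 in 68 of the 75 promoters (90.7%, against 49.1% and 35.8%).

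The CpG ratio had a median of 0.82 in the 43 promoters of genes marked in young HSCs and 0.818 in the 32 promoters of the other genes. These are promoters of 43 and 26 genes, and some windows of 1 gene overlap, as the 3 of Mrpl2 do, so motifs are compared here by gene. The NRF1 motif was at 12 of the 43 genes (27.9%) and 4 of the 26 (15.4%), against 10% of protein-coding genes in the table. The YY1 motif was at 15 (34.9%) and 6 (23.1%), against 7.59%, and the ETS motif at 15 (34.9%) and 11 (42.3%), against 13.4%. CCAAT was at 14 (32.6%) and 13 (50%), against 42.1%, and the E-box at 1 (2.33%) and 4 (15.4%), against 9.18%. The 26 include genes marked in aged HSCs alone. At the 17 genes with no promoter H3K4me3 at either age, the YY1 motif was at 6 (35.3%), ETS at 8 (47.1%) and NRF1 at 3 (17.6%). CCAAT was at 11 of the 17 (64.7%) and the E-box at 1 (5.88%). None of these differences was tested. Cytosolic ribosomal protein genes, whose 76 promoters also hold the ETS motif (35.5%) and the YY1 motif (22.4%) more often than protein-coding genes in general, had the NRF1 motif in 13.2%. In 72 promoters of nuclear respiratory chain genes these shares were 22.2%, 22.2% and 29.2%. The counts are a description of letters in a window, and no match was tested against binding.

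In young HSCs, 48 of the 78 genes (61.5%) had H3K4me3 at the promoter, where 33.8% of all protein-coding genes did. In aged HSCs, 32 (41.0%) had it, against 23.3% of all genes. The number of marked genes was thus 0.667 times that of young HSCs, and over all genes 0.689 times. In the 48 marked genes of young HSCs the peaks were 64 in number, and in the 32 of aged HSCs 36. A second promoter peak was listed for 17 genes in young HSCs (35.4%, against 32.2% of all marked genes) and for 4 in aged HSCs (12.5%, against 20.5%).

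**Figure D1:**
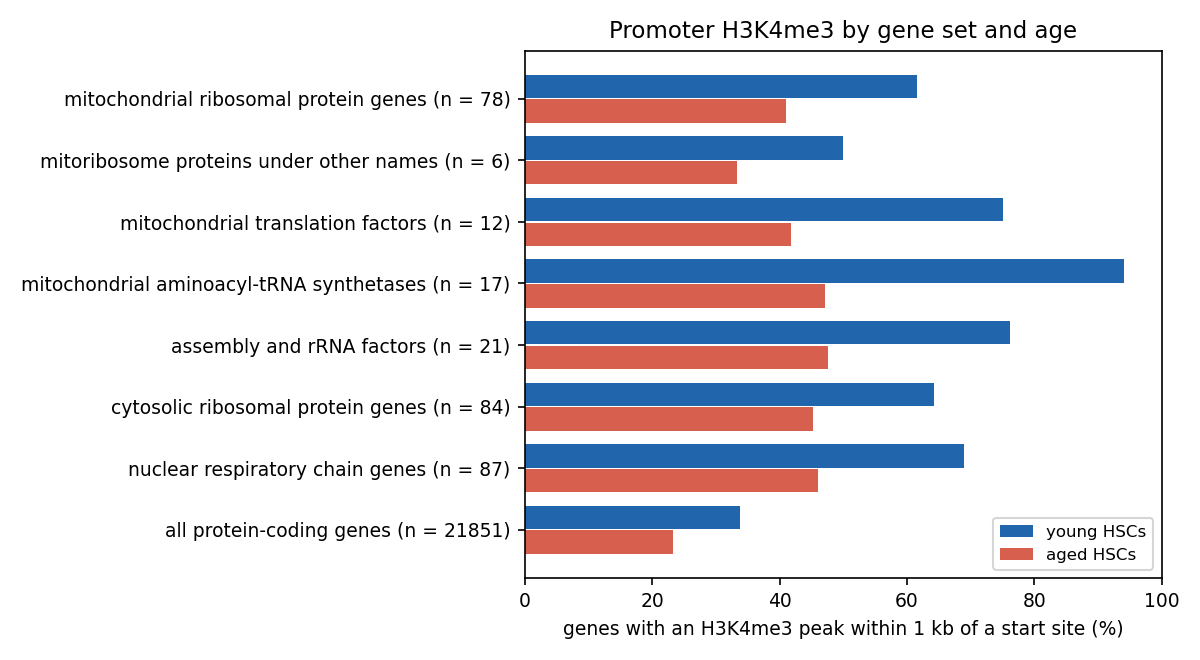
Share of genes with an H3K4me3 peak within 1 kb of a start site (horizontal axis, percent) in young (blue) and aged (red) HSCs, for the mitochondrial ribosomal protein genes, related gene sets and all protein-coding genes, with the number of genes in brackets. The mitochondrial ribosomal protein genes stand at 61.5% and 41.0%, close to cytosolic ribosomal protein genes, and each set shown has a lower share in the aged list.

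H3K4me3 was listed at both ages for 23 of the 78 genes (29.5%, against 17.5% of all genes), in young HSCs alone for 25 (against 16.3%), in aged HSCs alone for 9 (against 5.78%) and at neither age for 21 (26.9%, against 60.4%). Of the genes marked in young HSCs, 47.9% were also marked in aged HSCs, and over all genes this share was 51.8%. Of those marked in aged HSCs, 71.9% were also marked in young HSCs, against 75.2% over all genes. Both shares were thus near those of all genes. With the young list shortened to as many peaks as the aged list, 36 of the 78 genes were marked in young HSCs (23.4% of all genes) and 15 at both ages (19.2%, against 13% of all genes).

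The genes can be grouped by subunit name and by the origin of their proteins. Among genes with small subunit names, 19 of 29 (65.5%) were marked in young and 10 (34.5%) in aged HSCs. Among those with large subunit names, 29 of 49 (59.2%) and 22 (44.9%) were marked. Genes for universal or bacterial-type proteins had 26 of 46 (56.5%) and 19 (41.3%), and genes for mitochondria-specific proteins 22 of 32 (68.8%) and 13 (40.6%). None of these differences was tested.

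Related genes were compared by the same rule. Cytosolic ribosomal protein genes had promoter H3K4me3 at 54 of 84 (64.3%) in young and 38 (45.2%) in aged HSCs, and nuclear respiratory chain genes at 60 of 87 (69.0%) and 40 (46.0%). Other genes of mitochondrial translation were as follows. Of 12 translation factors, 9 were marked in young and 5 in aged HSCs. Mtif3 (initiation), Gfm2 and Mrrf (ribosome recycling), Mtfmt (which formylates the initiator tRNA) and Guf1 were marked at both ages. Tufm, Gfm1 and Mtrf1 were marked at neither. Tufm, Gfm1 and Tsfm encode elongation factors, and Tsfm was marked in young HSCs alone. Of 17 mitochondrial aminoacyl-tRNA synthetases, 16 were marked in young and 8 in aged HSCs, and Aars2 was the 1 without a young peak. Of 21 assembly and rRNA factors, 16 and 10 were marked, including the rRNA methyltransferases Mrm1, Mrm2 and Mrm3 at both ages. Of 6 genes listed as mitoribosome proteins under other names, Dap3, Ptcd3 and Oxa1l were marked in young and Chchd1 and Oxa1l in aged HSCs. Oxa1l, counted in this list, encodes a membrane insertase that binds the mitochondrial ribosome and is not itself a ribosomal protein.

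Peaks of the group were near the height of promoter peaks in general. MACS narrow peaks allow the number of reads at the summit to be recovered from the fold enrichment and the p-value, and 100% of the peaks gave whole reads within 0.01 on the −log10 scale of the p-value. The summit of the best promoter peak (the highest −log10 q-value per gene) held a median of 22 reads in young HSCs (range 15 to 31) and 20 reads in aged HSCs (range 16 to 26). Over all genes with a promoter peak the medians were 21 and 19 reads. Fold enrichment over background had a median of 4.45 in young and 4.42 in aged HSCs, against 4.25 and 4.20 over all genes. The median −log10 q-value was 5.73 in young HSCs (5.06 over all genes) and 4.71 in aged HSCs (also 4.71 over all genes). Peak width had a median of 328 bp in young and 308 bp in aged HSCs, against 314 and 280 bp. By rank of the −log10 q-value, 8 of the 48 genes were above 90% of all marked genes in young HSCs and 28 above the median, against 2 and 13 of the 32 in aged HSCs.

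**Figure D2:**
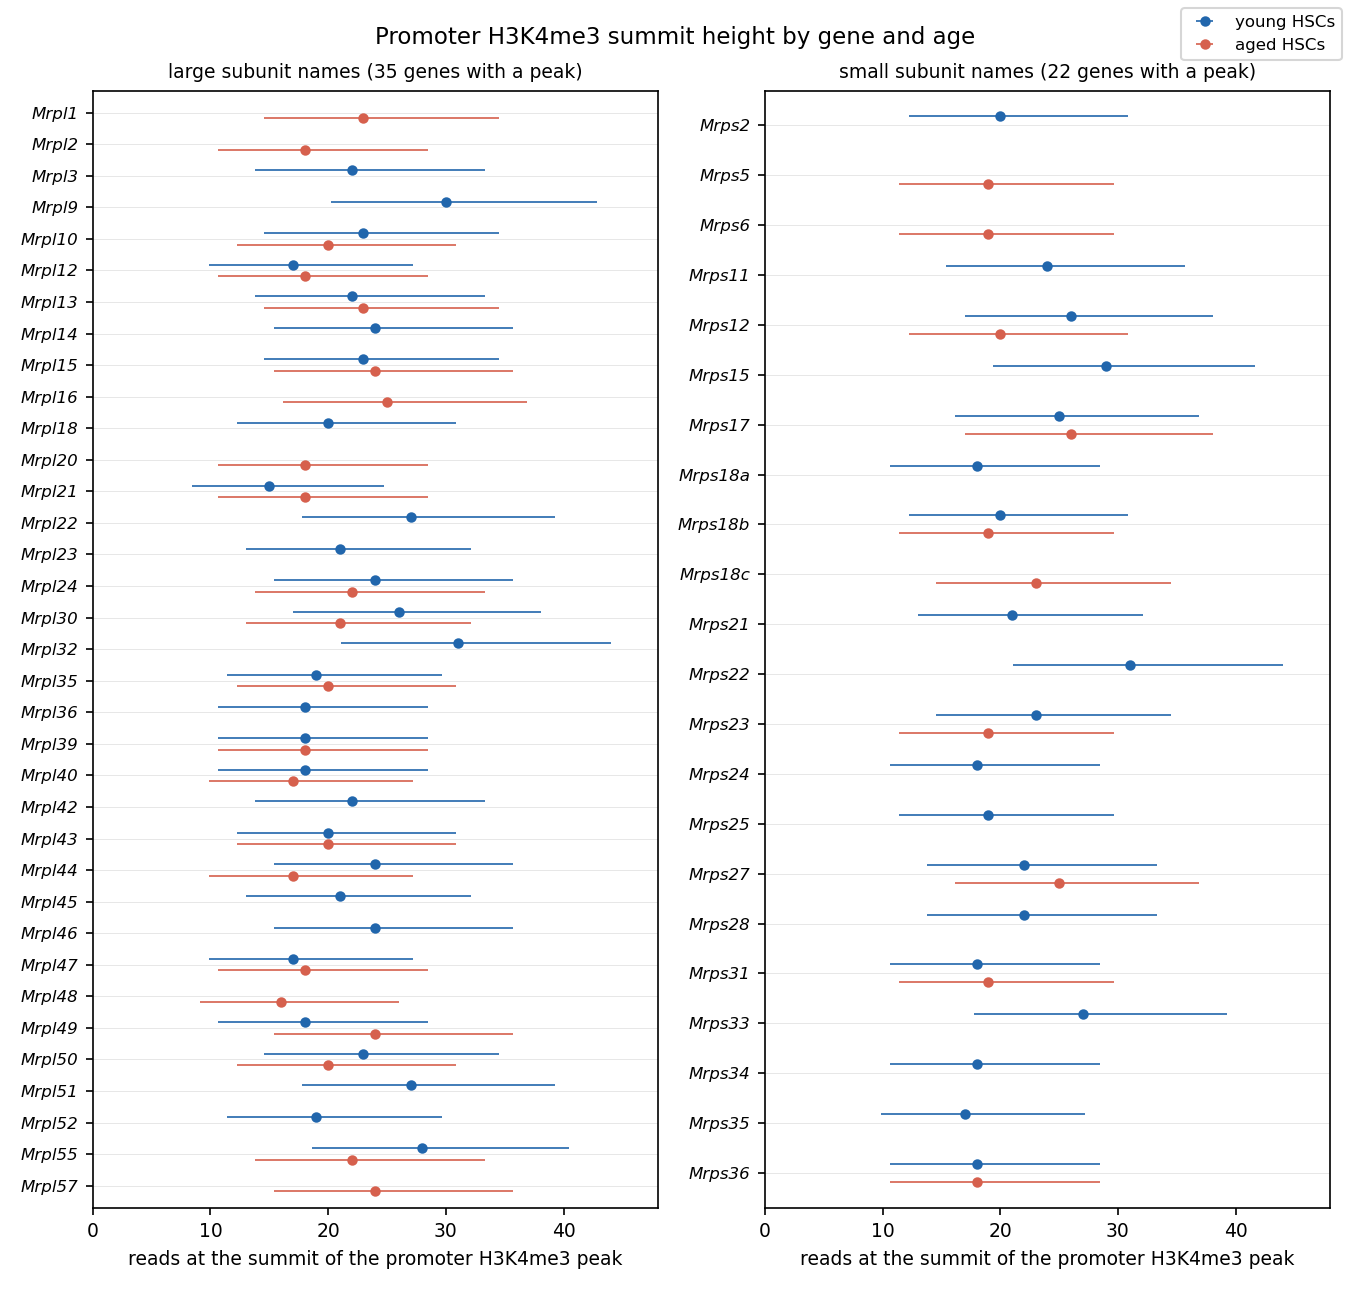
Reads at the summit of the best promoter H3K4me3 peak (horizontal axis) for the 57 genes with a peak in at least 1 list, large subunit names on the left and small subunit names on the right, in young (blue) and aged (red) HSCs. Lines are 95% Poisson intervals of the read number, and a missing point means that no peak was listed. Mrps22 and Mrpl32 were highest with 31 reads each, in young HSCs.

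The highest young peaks were at Mrps22 and Mrpl32. Mrps22, which encodes a mitochondria-specific protein of the small subunit, had 31 reads at the summit (95% Poisson interval 21.1 to 44.0), a 6.80-fold enrichment and a −log10 q-value of 12.38. Its peak lay at chr9:98601369-98601636, over a coding exon and an intron, with the summit 173 bp into the gene. No aged peak was listed at its promoter. The nearest lay 641815 bp away. Mrpl32, whose product is a bacterial-type protein of the large subunit, had 31 reads (21.1 to 44.0), 6.45-fold and 11.73. Its peak of 777 bp (chr13:14613255-14614031) was the widest of the group and began 90 bp upstream of the start site. It was also at the promoter of the divergent proteasome gene Psma2, whose start site lies 75 bp upstream. The peak covered neither start site. The intervals here and below cover counting error only, and reads were not counted by molecule.

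Next in rank were Mrpl9, Mrps15, Mrpl55 and, with equal values, Mrpl22 and Mrps33. Mrpl9, another bacterial-type protein of the large subunit, had 30 reads in young HSCs (20.2 to 42.8), with a −log10 q-value of 11.04. Its peak was also at the promoter of Oaz3. Mrps15, which has a bacterial counterpart in the small subunit, had 29 reads (19.4 to 41.6) and 10.98, in a peak of its own at chr4:126047020-126047441 with the summit 278 bp into the gene. Mrpl22, which lines the tunnel through which the new chain leaves, had 27 reads (17.8 to 39.3) and 9.65, as did Mrps33, a mitochondria-specific protein of the small subunit. These 6 genes (Mrps22, Mrpl32, Mrpl9, Mrps15, Mrpl22 and Mrps33) had no promoter peak in the aged list. Mrpl55, a bacterial-type protein of the large subunit, had 28 reads (18.6 to 40.5) in young HSCs. Its aged peak held 22 reads (13.8 to 33.3), but the background under the peak there was 7.91 reads and the fold enrichment 2.58. The 25 genes marked in young HSCs alone had summits of 17 to 31 reads, with a median of 22, and the 23 marked at both ages had the same median of 22 reads in young HSCs. Over all genes the medians were 20 and 21 reads.

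Among the 19 other genes listed in young HSCs alone were Mrpl3, which reaches towards the peptidyl transferase centre, with 22 reads (13.8 to 33.3), and Mrpl23 and Mrpl45, which lie at the exit of the tunnel, with 21 reads each. Mrpl46 and Mrps11 shared both of their peaks. Mrpl46 belongs to the large subunit and Mrps11 to the small subunit, and their start sites lie 30 bp apart on opposite strands. The peaks held 24 reads at chr7:78782719-78783014, downstream of the Mrpl46 start, and 19 reads at chr7:78783150-78783367, downstream of the Mrps11 start, with no peak over the stretch between them. Neither gene had an aged peak at its promoter, and the nearest lay 129765 bp from the start of Mrps11. The others were Mrpl14, Mrpl18, Mrpl36, Mrpl42, Mrpl51, Mrpl52, Mrps2, Mrps18a, Mrps21, Mrps24, Mrps25, Mrps28, Mrps34 and Mrps35.

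In aged HSCs the strongest peak was at Mrps27, a pentatricopeptide repeat protein of the small subunit. Its summit held 25 reads (16.2 to 36.9), with a 5.75-fold enrichment and a −log10 q-value of 8.22. In young HSCs its summit held 22 reads (13.8 to 33.3), 31 bp away from the aged summit. Mrpl49 followed with 24 reads (15.4 to 35.7) and 7.63, then Mrpl13 with 23 reads and 7.02. These 3 genes were also marked in young HSCs. Mrps17, which binds the rRNA of the small subunit, had 26 reads in aged HSCs (17 to 38.1) and 25 in young HSCs (16.2 to 36.9), in peaks that overlapped.

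Promoter H3K4me3 was listed in aged HSCs alone for 9 genes. Mrps18c had 23 reads (14.6 to 34.5) and a −log10 q-value of 7.02 over the divergent promoter shared with the helicase gene Helq, and the nearest young peak lay 21867 bp away. Mrpl57 had 24 reads (15.4 to 35.7), at the promoter shared with Ska3. Mrpl1, which forms the mobile stalk near the tRNA exit site, had 23 reads and Mrpl16 had 25, each in a peak of its own. Mrpl2, at the peptidyl transferase centre, had 18 reads, in a peak also at the promoter of Klc4. Mrps5, a protein of the mRNA path whose level has been tied to lifespan in mice and worms, had 19 reads, in a peak also at the promoter of Zfp661. Mrps6 had 19 reads, in a peak upstream of the gene that was also at the promoters of Slc5a3 and Gm49711. Mrpl20 had 18 reads in a peak of its own, and Mrpl48 had 16, in a peak also at the promoter of Rab6a. The 9 summits had a median of 19 reads, as did the aged-only summits of all genes.

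For the 23 genes marked at both ages, the summit was higher in aged HSCs for 10, lower for 10 and equal for 3. Over the 3825 genes marked at both ages it was higher for 28.7% and lower for 61.7%, against 43.5% and 43.5% here. The ratio of aged to young reads had a median of 1, against 0.917 over those genes. Reads were not scaled between the lists, whose lowest background was 3.70 reads in young and 3.52 in aged HSCs. Fold enrichment, which sets the reads against the local background, was higher in aged HSCs for 13 of the 23 genes (56.5%, against 48.2%). It moved in the opposite direction to the reads at 5 of the 23 (Mrpl10, Mrpl15, Mrpl35, Mrpl40 and Mrpl44), and at 820 of the 3825 genes. The highest ratios were at Mrpl49 (18 reads in young, 24 in aged HSCs, ratio 1.33), Mrpl21 (15 and 18, 1.20), Mrps27 (22 and 25, 1.14) and Mrpl12 (17 and 18, 1.06). The best young and aged peaks of Mrpl21 and of Mrpl12 did not overlap, with summits 621 and 336 bp apart. Mrpl12 encodes the protein of the flexible stalk that receives translation factors. The lowest ratios were at Mrpl44 (24 and 17, 0.708), which is related to ribonuclease III, at Mrps12 (26 and 20, 0.769), at Mrpl55 (28 and 22, 0.786) and at Mrpl30 (26 and 21, 0.808). At Mrpl44 the background was 5.94 reads in young and 3.52 in aged HSCs, and the fold enrichment was 3.60 in young and 3.98 in aged HSCs. The other 15 genes, among them Mrpl15, Mrpl24, Mrpl35, Mrpl43, Mrpl47, Mrpl50 and Mrps18b, had ratios between 0.826 at Mrps23 and 1.06 at Mrpl47. The 95% Poisson intervals of young and aged reads overlapped for all 23 genes, so at these read numbers no difference in height was resolved.

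**Figure D3:**
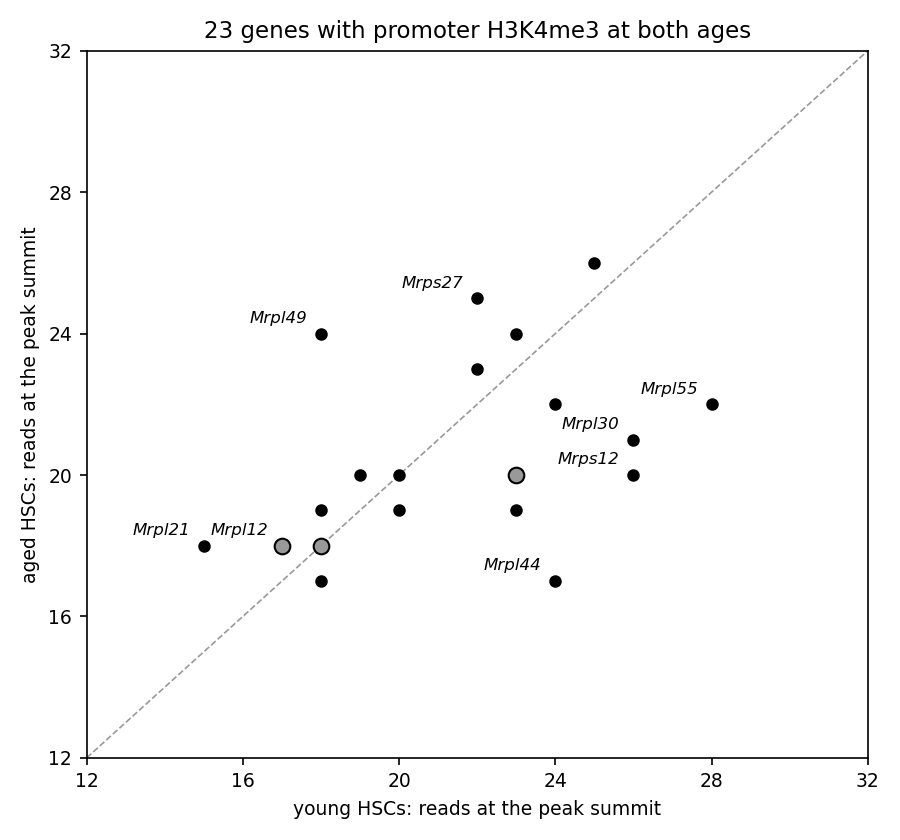
Reads at the summit of the best promoter H3K4me3 peak in young (horizontal axis) and aged (vertical axis) HSCs for the 23 genes marked at both ages. Each black point is 1 gene, each grey point 2 genes with the same values, and the dashed line is equality, with the 4 highest and 4 lowest ratios named. Of the genes, 10 lie above the line, 10 below and 3 on it.

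Peaks of young and aged HSCs often lay at the same place. For 18 of the 23 genes (78.3%, against 80.4% over all genes marked at both ages) a young and an aged promoter peak overlapped, and the best peaks themselves overlapped for 16 (69.6%, against 59.4%). The summits of the best peaks lay a median of 139 bp apart, against 237 bp over all genes. The summits of Mrps23 fell on the same base, and those of Mrps12 and Mrpl10 lay 2 and 3 bp apart. At Mrpl40 the summits were 724 bp apart, on either side of the start site, and there as at Mrpl39, Mrpl21, Mrps31 and Mrps36 no young peak overlapped an aged peak. The protein of Mrps36 is now placed in the oxoglutarate dehydrogenase complex rather than in the ribosome.

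**Figure D4:**
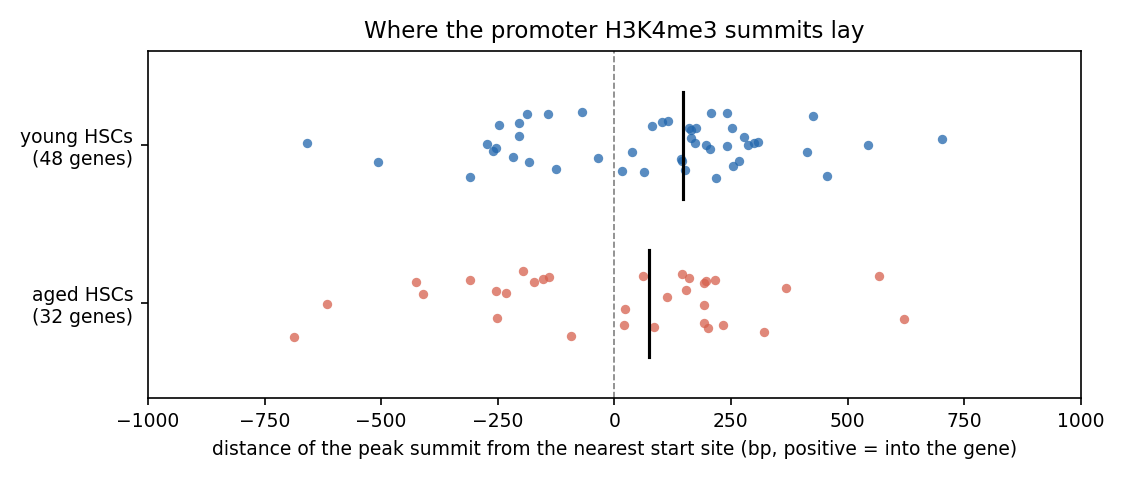
Distance of the summit of the best promoter H3K4me3 peak from the nearest start site (horizontal axis, bp, positive into the gene) for the 48 marked genes in young (blue, top) and the 32 in aged (red, bottom) HSCs, spread vertically only to separate points. Black bars are the medians, 148 bp in young and 73.5 bp in aged HSCs, and 6 summits in young and 5 in aged HSCs lie within 100 bp of the start site.

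Most summits lay more than 100 bp from the start site, where the windows counted are wider than the one around the start. In young HSCs, 26 of 48 summits (54.2%, against 39.7% of all marked genes) were 100 to 500 bp into the gene, 12 (25.0%, against 20.6%) were 100 to 500 bp upstream, and 6 (12.5%, against 9.42%) were within 100 bp of the start. In aged HSCs these numbers were 13 (40.6%, against 40.9%), 10 (31.2%, against 21%) and 5 (15.6%, against 10.4%) of 32. In each list, 4 summits (8.33% in young and 12.5% in aged HSCs, against 30.2% and 27.7% of all marked genes) lay more than 500 bp away, such as Mrps28 in young HSCs, whose peak was in an intron 703 bp into the gene.

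Many of the peaks were not of these genes alone. A start site of another protein-coding gene on the opposite strand lay within 1 kb upstream, as a divergent promoter, for 25 of the 78 genes (32.1%), against 9% of all protein-coding genes, 15.5% of cytosolic ribosomal protein genes and 26.4% of nuclear respiratory chain genes. The distance between the start sites had a median of 75 bp, from 26 bp at Mrpl54 and Apba3 to 935 bp at Mrpl41 and Pnpla7. Several partners also act in mitochondria. Mrps12 is paired with Sars2, the mitochondrial seryl-tRNA synthetase, Mrpl43 with Twnk, the helicase of mitochondrial DNA, Mrpl36 with Ndufs6 of respiratory complex I, Mrps27 with Ptcd2, and Mrpl46 with Mrps11. Others pair with genes of unlike function, such as Mrpl40 with the histone chaperone gene Hira, Mrpl18 with the chaperonin gene Tcp1, and Mrpl49 with Fau, which encodes a cytosolic ribosomal protein.

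Of the 25 genes with a divergent promoter, 18 (72%) were marked in young and 14 (56%) in aged HSCs, close to all divergent genes (71.2% and 53.1%). Of the 53 other genes, 30 (56.6%) and 18 (34%) were marked, against 30.1% and 20.3% of all genes without such a partner. The 3 divergent genes without a peak at either age were Mrpl37, Mrpl41 and Mrpl54. The best peak also overlapped the promoter of another gene for 20 of the 48 marked genes in young HSCs (41.7%, against 22.6% over all marked genes) and for 18 of 32 in aged HSCs (56.2%, against 23.7%). With such peaks not counted, 28 of the 78 genes were marked in young HSCs (26.5% of all genes), 14 in aged HSCs (17.9% of all genes and also 17.9% of the 78) and 11 at both ages (14.1%, against 12.9% of all genes). To which of the paired genes a shared peak belongs was not tested.

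**Figure D5:**
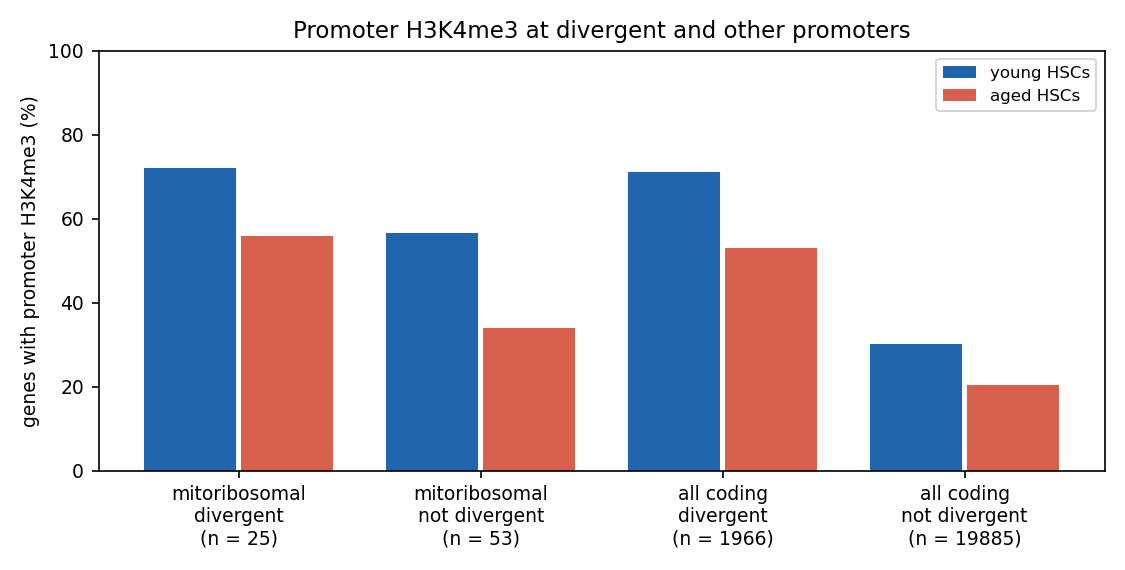
Share of genes with promoter H3K4me3 (vertical axis, percent) in young (blue) and aged (red) HSCs, for genes with and without a divergent protein-coding partner, among the 78 mitochondrial ribosomal protein genes and among all protein-coding genes. Divergent genes stand at 72% and 56% in the group and 71.2% and 53.1% among all genes, and the other genes at 56.6% and 34% in the group and 30.1% and 20.3% among all genes.

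No H3K4me3 peak at either age was listed at the promoters of 21 genes. Among those with conserved roles were Mrpl11, at the base of the stalk, Mrpl4, which lines the exit tunnel, Mrpl27, which reaches the peptidyl transferase centre, and Mrps7, Mrps9, Mrps10 and Mrps14, in the head of the small subunit. Mrpl58, also known as Ict1, releases chains from stalled ribosomes. Its promoter had no peak, although a young peak of 21 reads overlapped the 3′ end of the gene, 8931 bp from the start. The others were Mrpl17, Mrpl19, Mrpl28, Mrpl33, Mrpl34, Mrpl37, Mrpl38, Mrpl41, Mrpl53, Mrpl54, Mrps16, Mrps26 and Mrps30.

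For a few of the 21 a peak lay just outside the promoter. The nearest H3K4me3 peak was 1063 bp from Mrpl41 and 1343 bp from Mrpl34 in aged HSCs. At Mrpl54 a peak lay 1284 bp away in young and 1258 bp away in aged HSCs, and at Mrps16 the distances were 4358 and 4390 bp. For the other 17 the nearest peak at either age lay more than 5 kb away. The table held 18 promoters of 17 of the 21 genes. Their CpG ratio had a median of 0.773 and was at least 0.6 in 16 (88.9%), where 41 of the 43 promoters of genes marked in young HSCs (95.3%) reached it.

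H3K27me3 was listed at the promoter of 0 of the 78 genes in both young HSCs (16% of all genes) and aged HSCs (8.24% of all genes). Within 5 kb of a start site it was listed for 7 genes (8.97%, against 22.4%) in young and 3 (3.85%, against 13%) in aged HSCs. Mrps10 had the nearest young peak, 1633 bp away, and Mrps9 the nearest aged peak, 2424 bp away. Mrpl35 had peaks at 2333 bp in young and 3256 bp in aged HSCs. They lie at the 5′ end of the gene model, which is 3159 bp from the nearest start site of a protein-coding transcript.

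H2AK119ub1 was listed at 0 of the 78 promoters in young HSCs (1.91% of all genes) and at 4 (5.13%) in aged HSCs, where 14% of all genes had it. The young list held 2593 regions and the aged list 17768, and with the aged list shortened to the length of the young list it was at 0 of the 78 genes and 2.92% of all genes. The 4 were Mrpl10, Mrpl19, Mrpl21 and Mrpl48, with fold enrichments of 2.73, 3.03, 2.99 and 3.23 and −log10 q-values of 1.51, 1.27, 1.29 and 1.62, as averages over a region. Mrpl10 encodes the protein that holds the stalk, Mrpl19 and Mrpl21 bacterial-type proteins, and Mrpl48 a protein of the central protuberance. At Mrpl48 the region (chr7:100608440-100608754) covered the aged H3K4me3 peak (chr7:100608500-100608720), upstream of the start site and also at the promoter of Rab6a. At Mrpl10 (chr11:97040849-97041194) it lay upstream and the H3K4me3 peaks of both ages lay downstream, with summits 151 and 154 bp into the gene. This region and both H3K4me3 peaks were also at the promoter of Lrrc46, a divergent gene whose start site lies 153 bp upstream. At Mrpl21 (chr19:3281551-3281975) the H2AK119ub1 region lay 926 bp upstream, and at Mrpl19 (chr6:81965181-81965544) it lay in an intron, without H3K4me3. In young HSCs no H2AK119ub1 peak lay within 10 kb of a start site of any of the 78 genes, where 5.26% of all genes had one. Among the 84 cytosolic ribosomal protein genes H3K27me3 was listed at 0 in each list and H2AK119ub1 at 5 in aged HSCs.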

How the data were processed

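ChIP-seq libraries of H3K4me3, H3K27me3 and H2AK119ub1 from young and aged HSCs were analysed through the 6 pooled peak lists, 1 for each mark and age. The submitters' processing notes name Bowtie2 and MACS2 2.2.6, and the build is mm10. For each peak, the authors deposited a fold enrichment over background (a linear ratio) and the −log10 of the p-value and of the q-value. In broad lists these are averages over a region. Neither sequencing depth nor values per replicate are part of the lists. Multiply aligned and duplicated reads, the caller's threshold and pooling all affect which peaks are listed.

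Genes and start sites (21851 genes, 41438 start sites) were read from the basic GENCODE M21 annotation, and promoter sequences from RefSeq. Overlaps, pileup recovery and motif searches used Python 3.11.15 (scipy 1.17.1, pandas 2.3.3, numpy 2.4.6) and were tested on simulated data. Plots used matplotlib 3.10.9. Poisson intervals are 95%. Shares over all genes stand as the background, and no test was made.

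The members, lists and alternatives were chosen with earlier results of these data known. Genes were named by rule: those with a Polycomb mark, the 6 highest −log10 q-values per H3K4me3 list, the 4 highest and 4 lowest ratios of aged to young reads, the 5 strongest genes listed in young HSCs alone and the 8 strongest in aged HSCs alone, all genes without H3K4me3, and 7 genes of conserved role. Other genes were named to account for every member. Promoters were printed for 13 genes rather than for every gene of the rule, chosen after their values were seen. Cytosolic ribosomal protein genes were taken as Rpl, Rps or Rplp symbols with a number, and Rpsa, without the Rps6k genes. Respiratory chain genes were taken by their Nduf, Sdh, Uqcr, Cyc1, Cox and Atp5 symbols. Both sets include paralogues. Some had no promoter H3K4me3 at either age (such as Rpl3l, Rpl10l, Rpl39l, Cox6b2, Cox7b2 and Cox8c) and others had it (such as Rpl22l1, Rpl7l1 and Cox7a2l). Ict1 and Mtres1 were not matched by name and are not counted in the lists, and 1 marker gene of other blood cells is not reported here.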

Additional observations from a re-analysis of the deposited data

How the results depend on the processing

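Alternatives left the order of the counts between young and aged H3K4me3 unchanged, and 62 recomputed values stayed within 1.5 times the reported count or 1 SD of the reported median, whereas 12 did not. A −log10 q-value threshold of 4 gave H2AK119ub1 at 0 genes in aged HSCs (0.188% of all genes) and H3K4me3 at both ages at 12 (15.4%, against 9.84% of all genes). Shortening the longer list of each mark gave 0 (2.92% of all genes) and 15 (19.2%, against 13%). With a promoter of 2 kb in each direction, H3K27me3 in young HSCs was at 1 gene (Mrps10; 1.28%, against 18.4%) and H2AK119ub1 in aged HSCs at 7 (8.97%, against 17.8%). With 1 start site per gene, H3K27me3 was at 1 gene (Mrpl35) in young (15% of all genes) and 1 in aged HSCs (7.35%). Without peaks at another gene's promoter, H3K4me3 was at 28 genes in young (35.9%, against 26.5%), 14 in aged (17.9%, against 17.9%) and 11 at both ages (14.1%, against 12.9%), and H2AK119ub1 at 2 in aged HSCs (2.56%, against 13%). Each alternative has fewer peaks or other windows by construction, and why these counts moved was not tested. Start sites of the comprehensive annotation, an alternative chosen after seeing the data, gave the same member counts.

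No paired analysis was possible because the peak lists hold no values per replicate, and no replicate could be left out for the same reason. Summits of 15 to 31 reads limit the precision of every height, and genes just under the caller's threshold are not told apart from unmarked genes.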
